A study of Mus musculus with 6 samples.

Results

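The genes described here make glutathione, supply its cystine and cysteine, recycle it and break it down. They are 10 in number (Slc7a11, Slc3a2, Slc1a1, Gclc, Gclm, Gss, Gsr, Ggt7, Chac1 and Chac2), out of 22180 genes with a probe set of their own among 41345 probe sets. Each gene was read from the probe set annotated to its symbol, and where it had several, from the one with the highest mean over the 6 arrays. All 10 were measured, and the mean level of each was higher than that of 40% of probe sets (the 40th percentile). RNA came from the ventral midbrain of male mice 2 months of age and was hybridised to Affymetrix mouse gene arrays, 3 labelled Bach1 knockout and 3 labelled wild type, with no treatment in either group. The mouse strain, the structure of the knockout allele and whether each array held 1 animal are not stated in the sources used here, so the p-values cover only the spread among these arrays, which may be technical. Values are log2 levels, on which a difference of 1 is a doubling.

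Glutathione is a tripeptide of glutamate, cysteine and glycine, and the main small thiol that keeps cells reduced. Cysteine usually limits its synthesis: cells take cysteine up directly, or take up cystine and reduce it. A ligase made of a catalytic and a modifier subunit joins glutamate to cysteine, a synthase adds glycine, and a reductase restores the oxidised form with NADPH. The transcription factor NRF2 switches on several of these genes through antioxidant response elements, and BACH1, a repressor that heme inactivates, competes for such elements. In the midbrain the pathway is followed closely because glutathione is reported to be low in the substantia nigra in Parkinson disease.

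The promoters of 8 of the 10 genes were matched in a RefSeq table (build GRCm38.p6). Gclc and Gsr were not matched. Each stretch of 300 bases, 250 before and 50 after the start site, was searched on both strands for 3 sets of letters. These were TGACNNNGC, the core of the antioxidant response element; TGACTCAGC, letters of the Maf recognition sequence that Bach proteins bind with small Maf partners, every match of which is also a match of the first; and TGATGCAA, the amino acid response element read by ATF4 complexes. A match to the first was found in 12.4% of all 32851 promoters of this length in the table, to the second in 0.454% and to the third in 0.895%. Among the 8 genes, Gclm held the first, none held the second, and Slc7a11 and Chac1 held the third. The first was thus held by 1 of 8 genes, close to its share over all promoters, and the third by 2 of 8, above its share. These counts were not tested. The stretches of all 3 genes with a match are shown. They run 5′ to 3′ on the gene's strand, all before the start site, and capitals mark the match. The Gclm stretch is chr3:122245357-122245556 on the plus strand, the Slc7a11 stretch chr3:50443614-50443733 on the minus strand and the Chac1 stretch chr2:119351002-119351121 on the plus strand.
Gclm: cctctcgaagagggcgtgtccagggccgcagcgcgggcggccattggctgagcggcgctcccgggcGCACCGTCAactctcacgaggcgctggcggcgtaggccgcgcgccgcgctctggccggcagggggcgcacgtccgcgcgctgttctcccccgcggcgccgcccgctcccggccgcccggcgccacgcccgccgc
Slc7a11: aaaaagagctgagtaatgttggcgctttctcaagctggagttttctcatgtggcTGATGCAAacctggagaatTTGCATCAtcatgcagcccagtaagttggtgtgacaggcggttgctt
Chac1: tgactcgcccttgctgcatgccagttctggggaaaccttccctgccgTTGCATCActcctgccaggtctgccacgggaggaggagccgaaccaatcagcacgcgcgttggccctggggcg
In Gclm the match lay on the opposite strand, at -134 to -126 from the start site, and read TGACGGTGC there. Slc7a11 held 2 matches in opposite orientations, at -66 to -59 and at -47 to -40, and Chac1 held 1 on the opposite strand at -193 to -186. A match describes letters and was not tested as a binding site.

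The arrays and labels were checked first. Pearson correlations between arrays across probe sets ran from 0.984 to 0.989, and 3 of 41345 probe sets passed the test of knockout-labelled against wild-type arrays (limma, adjusted p under 0.05, 0.00726% called), all 3 higher. One was Hmox1, the inducible heme oxygenase gene and a classic target of BACH1, with a log2 fold change of 1.95. The others were not the probe sets read for any of the 22180 genes. Leaving out any 1 array left 0 called probe sets, with limma's adjusted p of Hmox1 at 0.134 to 0.233. Bach1 itself was not lower on the knockout-labelled arrays (log2 fold change 0.11, 95% interval -0.085 to 0.31), and directions here follow the labels. The dopamine neuron markers of the labelled region were all detected above the 40th percentile, with mean log2 levels between 6.29 and 11.96 for the 9 listed genes, Th and Slc6a3 among them. Levels of cell type and region markers were not even between the arrays. All 6 hypothalamus markers had lower means on the knockout-labelled arrays (median log2 fold change -1.25), with scores of -0.53, -0.77 and -1.99 against -0.66, -0.14 and 0.80, and limma called 0 of them. All 9 endothelial and mural markers were lower too (median -0.15, 0 called). Of 12 meningeal fibroblast markers 10 were lower and 2 higher (median -0.26, 0 called). The 9 dopamine neuron markers leaned the other way, with 7 higher and 2 lower (median 0.17, 0 called). The part of this in the glutathione gene values was not tested.

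Of the 10 glutathione genes, Gclm was the one that separated the 2 groups of arrays without overlap. It encodes the ligase's modifier subunit, which has no catalytic site and makes the catalytic subunit more active. Its log2 level on the knockout-labelled arrays was 10.27, 10.04 and 10.11 for replicates 1, 2 and 3, and on the wild-type arrays it was 9.88, 9.83 and 9.84. Every knockout-labelled array was thus higher than every wild-type array, with a gap of 0.17 between the nearest values. The knockout-labelled mean was 10.14 ± 0.12 (SD, n = 3) and the wild-type mean 9.85 ± 0.024 (SD, n = 3), a level 22.8% higher. The log2 fold change of 0.30 (SE 0.090, 95% interval 0.079 to 0.51) did not pass over all probe sets (limma, adjusted p = 0.538). By unadjusted p (0.0154) Gclm stood at rank 408 of 22180 genes. Among all genes 6.36% had non-overlapping groups with the knockout-labelled values higher and 6.51% had an unadjusted p under 0.05, and 1 of the 10 glutathione genes met each. Gclm had log2 fold changes from 0.23 to 0.36 under the 14 alternatives run for it. Because its groups did not overlap, leaving arrays out or weighting them could not turn the sign. Other variance models, the filter on dim probe sets and replicate blocks leave the estimate as it is. The knockout-labelled arrays had the same order for Hmox1, whose levels there were 8.50, 8.22 and 8.41, as for Gclm. Replicate 1 was highest and replicate 2 lowest for both genes, and 3 arrays allow few orders. The meningeal, endothelial and oligodendrocyte marker scores also had that order, and all other marker lists had different ones. The oligodendrocyte scores, for example, were 0.072, -0.17 and 0.00055. The part of these markers in the order was not tested. On the wild-type arrays Hmox1 was at 6.51, 6.46 and 6.32, and its log2 change was 6.57 times that of Gclm.

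Gclc, the catalytic subunit that carries out the ligase reaction, gave nearly the same reading on every array. The log2 readings were 9.44, 9.38 and 9.31 for the knockout-labelled arrays, in the order of replicates 1 to 3, and 9.38, 9.39 and 9.38 for the wild-type arrays. The wild-type values all fell inside the range of the knockout-labelled ones. The log2 fold change was -0.0086 (limma, 95% interval -0.19 to 0.18, adjusted p = 0.984), an interval that spans 12.6% lower to 13.1% higher levels. Its sign was not stable: it was 0.025 without knockout-labelled replicate 3 and 0.034 with arrays centred on their 75th percentile.

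Whether both ligase subunits changed equally was asked of the difference between them within each array, which leaves their levels out of the comparison. Set against the wild-type mean, the log2 value of Gclm minus Gclc was 0.37, 0.20 and 0.34 on the knockout-labelled arrays and 0.032, -0.025 and -0.0062 on the wild-type arrays. The groups did not overlap, and Gclm exceeded Gclc by 0.30 more in the knockout-labelled group (SD 0.093 and 0.029, n = 3 each). The exact two-sided permutation test gave p = 0.1, which is the smallest p that 3 against 3 arrays allow, and p = 0.3 after Benjamini-Hochberg adjustment over the 3 pairs tested, so this design could not pass a threshold of 0.05. Without any 1 array the difference stayed between 0.27 and 0.36.

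**Figure D1:**
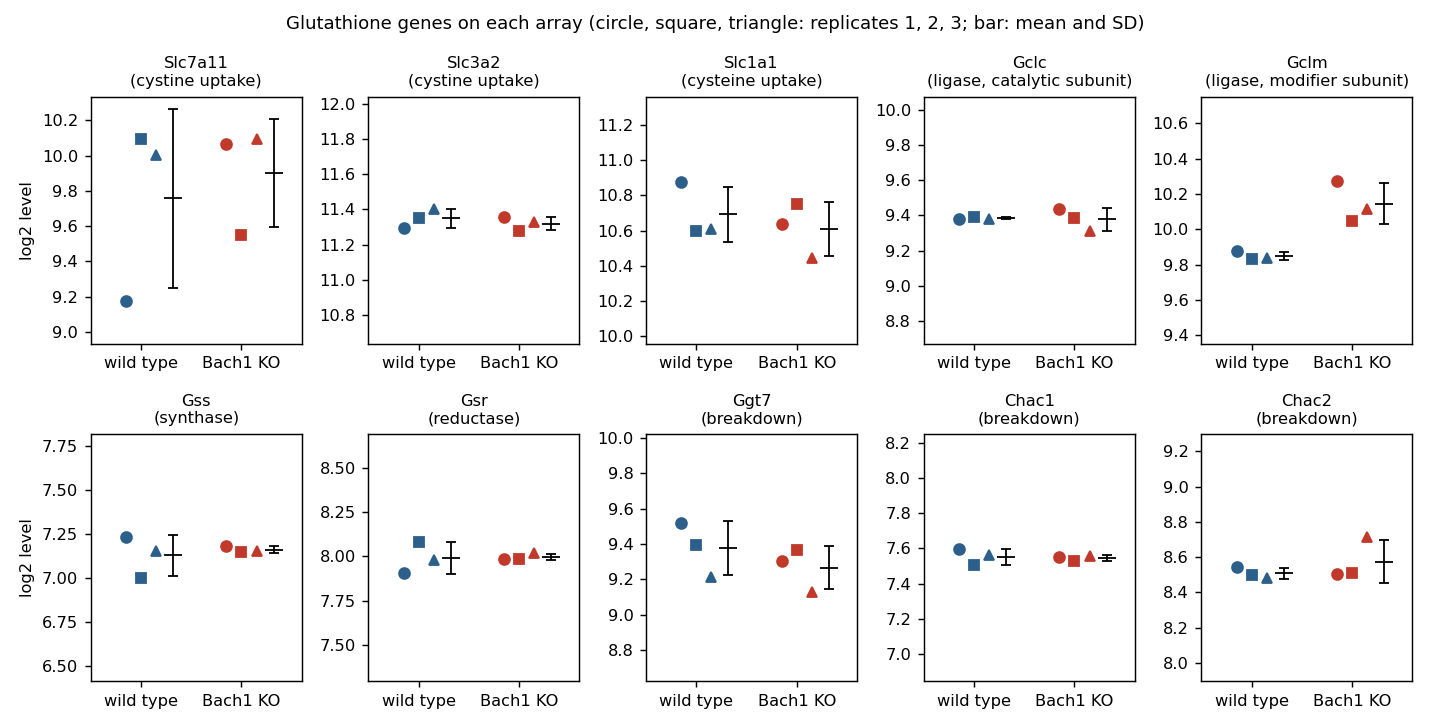
Log2 level (y axis, each panel spanning the same height) of the 10 glutathione genes on each array, wild type in blue and Bach1 knockout-labelled in red, with circle, square and triangle for replicates 1, 2 and 3 and the bar for mean and SD (n = 3). Gclm is the panel in which the groups do not overlap, at 10.04 to 10.27 against 9.83 to 9.88, and Slc7a11 is the panel with the widest spread.

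Slc7a11, the light chain of the exchanger that brings in cystine for glutamate, varied more between arrays than any other of the 10 genes. The knockout-labelled replicates 1, 2 and 3 read 10.07, 9.55 and 10.09 on the log2 scale, the wild-type ones 9.17, 10.09 and 10.002. Wild-type replicate 1 was the lowest and knockout-labelled replicate 2 the next lowest, while the other 4 arrays lay close together and the groups overlapped. Within groups its SD was 0.42, larger than that of 98.9% of the 15790 genes above the 40th percentile. Its log2 fold change of 0.15 came with a wide interval (limma, 95% interval -0.54 to 0.83, adjusted p = 0.914), and it was -0.14 without wild-type replicate 1. A second, dim probe set of Slc7a11 read 4.98, 4.33 and 4.51 on the knockout-labelled arrays and 4.30, 5.18 and 4.83 on the wild-type arrays. It had the opposite sign, with a log2 fold change of -0.16 (adjusted p = 0.895), but the same arrays, wild-type replicate 1 and knockout-labelled replicate 2, were again the lowest of their groups. The other 9 genes each had 1 probe set.

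Those arrays were also the lowest in markers of meningeal fibroblasts, cells of the brain's coverings. The exchanger is known from meninges as well as from glia. The score of 12 meningeal markers, their mean log2 difference from the wild-type mean, was at its lowest on them, with -0.69 for wild-type replicate 1 and -0.70 for knockout-labelled replicate 2. The other knockout-labelled arrays, replicates 1 and 3, scored -0.052 and -0.28, and the other wild-type arrays, replicates 2 and 3, scored 0.34 and 0.35. Wild-type replicate 1 was the lowest wild-type array for 12 of the 12 markers, and knockout-labelled replicate 2 the lowest knockout-labelled array for 10 of them. The mean log2 levels of the 12 ran from 5.72 to 13.04, all above the 40th percentile (5.07). The lowest of them, Lum, read 5.01 on knockout-labelled replicate 2, which is below that level. The endothelial and mural score was also lowest of its group on both arrays, at -0.050 on wild-type replicate 1 against 0.048 and 0.0022, and at -0.36 on knockout-labelled replicate 2 against -0.081 and -0.12. Astrocyte marker scores moved less over the 6 arrays, from -0.042 on knockout-labelled replicate 2 to 0.038 on knockout-labelled replicate 3. Knockout-labelled replicate 2 was also lowest of its group for microglia (-0.077), oligodendrocytes (-0.17) and dopamine neurons (-0.045). It was highest of its group for choroid plexus and ependyma (0.16), neurons, cortex and hippocampus, and blood. Wild-type replicate 1 was also lowest of its group for choroid plexus and ependyma (-0.18), hypothalamus, and cortex and hippocampus, but for no further list. The part of these markers in the Slc7a11 values was not tested, and in bulk tissue fewer cells of a type and less RNA per cell cannot be told apart. Without both low arrays, an alternative added after seeing the data, the log2 fold change of Slc7a11 was 0.032 (limma, adjusted p = 0.961).

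**Figure D2:**
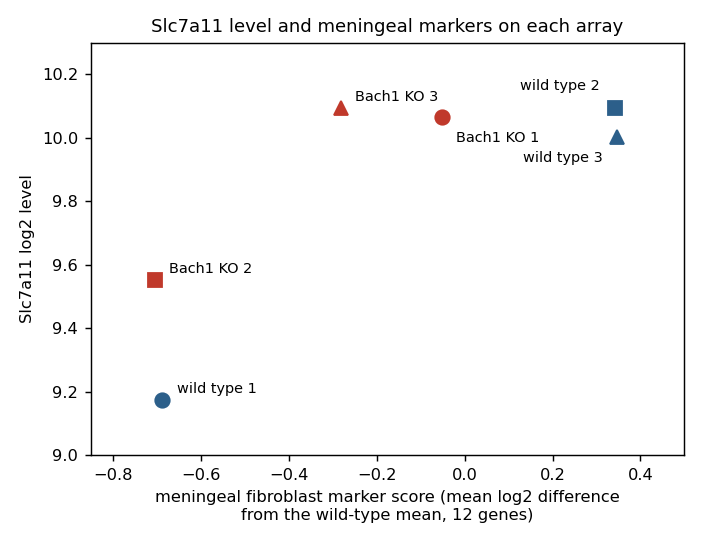
Slc7a11 log2 level (y axis) against the meningeal fibroblast marker score (x axis, mean log2 difference from the wild-type mean over 12 genes) on each of the 6 arrays, wild type in blue and Bach1 knockout-labelled in red. Wild-type replicate 1 and knockout-labelled replicate 2, at scores of -0.69 and -0.70, have the lowest Slc7a11 levels, 9.17 and 9.55.

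The genes whose profile over the 6 arrays was closest to that of Slc7a11 were 1700048O20Rik, Vwf, Gbp5, Cytl1 and Bmp5. Likeness was the root mean square difference between array-centred log2 levels over 15789 genes above the 40th percentile, and it was 0.086, 0.12, 0.14, 0.14 and 0.14 for these, against a root mean square of 0.35 for Slc7a11 itself. Vwf, the clotting factor gene of endothelial cells, read 7.32, 6.71 and 7.10 on the knockout-labelled arrays and 6.56, 7.33 and 7.13 on the wild-type arrays. Bmp5, a secreted growth factor gene, read 5.65, 5.56 and 6.01 against 5.16, 6.07 and 5.87. In both, wild-type replicate 1 was the lowest of all arrays and knockout-labelled replicate 2 the next lowest. That is part of how profiles close to that of Slc7a11 were chosen and carries no test.

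Slc3a2, the heavy chain that carries Slc7a11 and several other light chains to the membrane, varied far less between arrays than Slc7a11. Its log2 level was 11.35, 11.28 and 11.33 on the knockout-labelled arrays and 11.30, 11.35 and 11.40 on the wild-type arrays. All 6 arrays lay within 0.12 of each other. The lowest was knockout-labelled replicate 2 and the next wild-type replicate 1, the arrays also lowest for Slc7a11. The log2 fold change was -0.029 (limma, 95% interval -0.21 to 0.16, adjusted p = 0.938), and it became 0.013 with arrays centred on their 75th percentile. The difference Slc7a11 minus Slc3a2 changed by 0.18 between the groups and overlapped (exact two-sided permutation p = 0.6, adjusted p = 0.6 over 3 pairs), and it was -0.088 without wild-type replicate 1.

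Slc1a1, the neuronal carrier that takes up cysteine as well as glutamate, also overlapped between the groups. Its log2 level was 10.64, 10.75 and 10.45 on the knockout-labelled arrays and 10.87, 10.60 and 10.61 on the wild-type arrays. Wild-type replicate 1, the lowest array for Slc7a11, was the highest for Slc1a1. The log2 fold change was -0.083 (limma, 95% interval -0.38 to 0.22, adjusted p = 0.885), and it was 0.0075 without that array.

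The later steps of synthesis and recycling differed by less than the spread between arrays. Gss, the synthase that adds glycine, was at 7.18, 7.14 and 7.15 on the knockout-labelled arrays and 7.23, 7.001 and 7.15 on the wild-type arrays. The knockout-labelled values all fell inside the wild-type range, with a log2 fold change of 0.032 (limma, 95% interval -0.18 to 0.25, adjusted p = 0.94) that was -0.031 without wild-type replicate 2 and -0.015 with arrays centred on their median. Gsr, the reductase, was at 7.99, 7.99 and 8.02 against 7.90, 8.08 and 7.98, again with the knockout-labelled values inside the wild-type range. Its log2 fold change was 0.0082 (limma, 95% interval -0.19 to 0.21, adjusted p = 0.986). It was -0.034 without wild-type replicate 1, -0.0019 without knockout-labelled replicate 3 and -0.039 with arrays centred on their median.

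Among the genes of breakdown, Chac1 was the steadiest of all 10 and Ggt7 had the lowest log2 fold change of the 10. Chac1 and Chac2 encode γ-glutamylcyclotransferases that cleave glutathione inside the cell, and Chac1 is induced by ATF4 under stress. Chac1 was at 7.55, 7.53 and 7.56 on the knockout-labelled arrays and 7.59, 7.50 and 7.56 on the wild-type arrays, all within 0.091. Its log2 fold change was -0.0069 (limma, 95% interval -0.19 to 0.17, adjusted p = 0.987), and the sign changed without knockout-labelled replicate 2 (0.0027), without wild-type replicate 1 (0.014) and with arrays centred on their 75th percentile (0.036). Chac2 was at 8.51, 8.51 and 8.71 on the knockout-labelled arrays and 8.54, 8.50 and 8.48 on the wild-type arrays. Only knockout-labelled replicate 3 stood above the others, and without it the log2 fold change of 0.066 (limma, 95% interval -0.15 to 0.29, adjusted p = 0.873) was -0.0025. Chac1 minus Chac2 changed by -0.073 between the groups (exact two-sided permutation p = 0.4, adjusted p = 0.6 over 3 pairs). Ggt7 encodes a member of the γ-glutamyltransferase family, some of whose enzymes open glutathione outside the cell. Whether Ggt7 does so was not tested here. The Ggt7 level was 9.30, 9.37 and 9.13 on the knockout-labelled arrays and 9.52, 9.40 and 9.22 on the wild-type arrays. These values overlapped, with a log2 fold change of -0.11 (limma, 95% interval -0.39 to 0.17, adjusted p = 0.821).

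Read as a group, 0 of the 10 genes passed limma over all probe sets, against 0.00726% of all probe sets, and 1 of 10, Gclm, had an unadjusted p under 0.05. The knockout-labelled mean was above the wild-type mean for 5 and below it for 5, and the median of their log2 fold changes was 0.00063 beside -0.0098 over all 22180 genes. For 8 of the 10 the sign changed under at least 1 alternative, Gclm and Ggt7 being the exceptions. In Gclm leaving arrays out could not turn the sign, as its groups did not overlap. The intervals bound the size of a change more tightly than they fix its sign. For 8 of the 10 genes the 95% interval lay within 25% of no change in either direction, the exceptions being Slc7a11 and Gclm. For 8 of the 9 genes other than Gclm its upper end was below the Gclm estimate. The Gclm interval, 0.079 to 0.51, nonetheless overlapped the intervals of all 9. In all 10 the upper end was below the lower end of the Hmox1 interval (1.69).

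**Figure D3:**
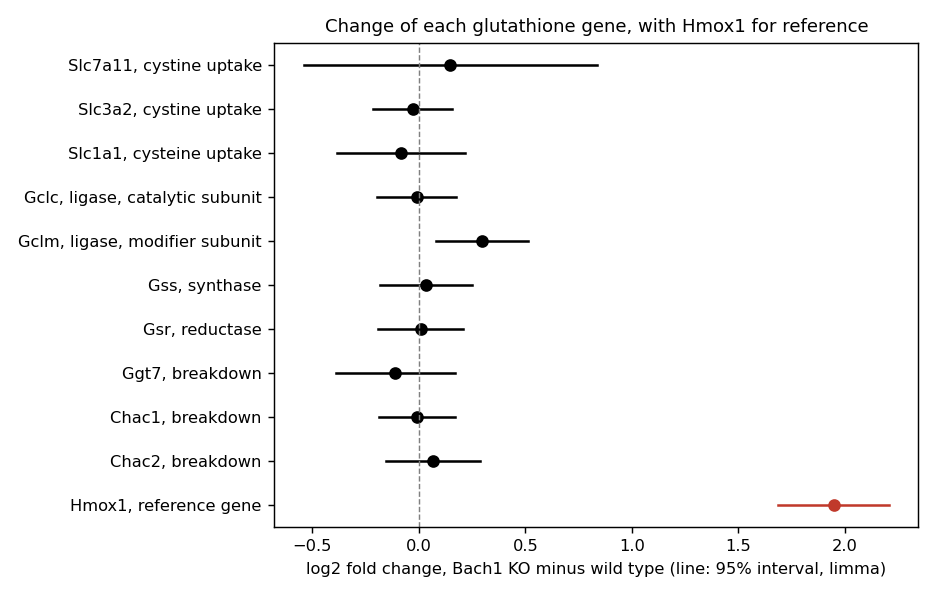
Log2 fold change of the 10 glutathione genes and of Hmox1, Bach1 knockout-labelled minus wild type (x axis), with 95% intervals from limma (n = 3 against 3). The interval of Gclm, 0.079 to 0.51, lies above 0, that of Slc7a11 is the widest, and Hmox1 at 1.95 stands apart from all 10.

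The surrounding pathways were listed as 61 genes, and 56 of these could be read from their own probe set. Limma called 0 of them over all probe sets (0.00726% of all probe sets called), and 2 of the 56 had an unadjusted p under 0.05, where 6.51% of all genes did. Their mean was higher for 28 and lower for 28, with a median log2 fold change of -0.0018. In 6 of the 56 the groups did not overlap, in each case with lower values on the knockout-labelled arrays, where 7.94% of all genes separated in that direction. The 6 were Csad, Ahcy, Cbs, Slc25a39, Sesn2 and Cndp2, the last, a dipeptidase gene, being named after its values were seen. Ahcy separated only on the probe set used.

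The genes with an unadjusted p under 0.05 were Csad, of the list of cysteine and sulfide use, and Ahcy, of the list of the methionine cycle and transsulfuration. Csad turns a cysteine oxidation product toward taurine, and its log2 level was 6.93, 6.91 and 6.93 on the knockout-labelled arrays and 7.30, 7.09 and 7.21 on the wild-type arrays. The knockout-labelled values were almost equal and all lower. Its log2 fold change of -0.28 (95% interval -0.49 to -0.068) did not pass (limma, adjusted p = 0.542). The other 4 genes of cysteine and sulfide use lay between -0.066 (Mpst) and 0.0083. Mpst was 0.0061 without knockout-labelled replicate 2 and 0.0092 without wild-type replicate 2. In the methionine cycle and transsulfuration, which makes cysteine from methionine, 4 of 6 genes were above and 2 below the wild-type mean. Ahcy, which clears S-adenosylhomocysteine, was at 5.78, 5.66 and 5.63 against 5.92, 5.95 and 6.28, with a log2 fold change of -0.36 (limma, adjusted p = 0.561). The second Ahcy probe set gave -0.087 (limma, adjusted p = 0.853) with overlapping groups. The probe sets thus disagreed in size and in whether the groups separated. Cbs, the first enzyme of transsulfuration, was at 8.24, 8.26 and 8.31 against 8.36, 8.46 and 8.32 (log2 fold change -0.11, limma, adjusted p = 0.734). Its nearest values, 8.31 and 8.32, almost touched.

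The other amino acid carriers and the other light chains around the cystine exchanger all overlapped between the groups. Of 10 other amino acid carriers 6 were above and 4 below the wild-type mean, and the members with the smallest p were the neutral amino acid carrier Slc1a4 (log2 fold change -0.14) and the glutamine carrier Slc38a3 (-0.097). Of the 5 other light chains that pair with Slc3a2, 3 were above and 2 below it, with Slc7a7 at 0.17 and Slc7a10 at -0.089. Among 5 genes of glutathione export and mitochondrial import 1 was above and 4 were below it. Slc25a39, which carries glutathione into mitochondria, was at 9.33, 9.15 and 9.26 against 9.42, 9.38 and 9.33, lower on every knockout-labelled array by a narrow margin (log2 fold change -0.13, limma, adjusted p = 0.711). The exporter Abcc1 was at -0.078.

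Genes that use or break down glutathione, and the ATF4 response, showed no called member either. Of 8 genes of the γ-glutamyl cycle 3 were above and 5 below the wild-type mean, with the dipeptidase Dpep2 at 0.20 (-0.0085 on its second probe set) and Ggt5, a transferase that acts on glutathione and leukotriene, at -0.23. Of 7 glutaredoxin, glyoxalase and related genes 4 were above and 3 below it, with Glrx3 at 0.12 and Glrx at -0.10. The latter was 0.010 without wild-type replicate 1. Of 10 genes of ATF4 and its amino acid response, whose element's letters stand in the Slc7a11 and Chac1 promoters shown, 5 were above and 5 below it, and Atf4 itself was at -0.0039. The smallest p belonged to the serine synthesis gene Phgdh (log2 fold change -0.25, limma, adjusted p = 0.662) and to Sesn2, a stress-induced regulator of growth signalling, at -0.18. Sesn2 read 6.67, 6.72 and 6.76 against 6.79, 7.04 and 6.86, without overlap.

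**Figure D4:**
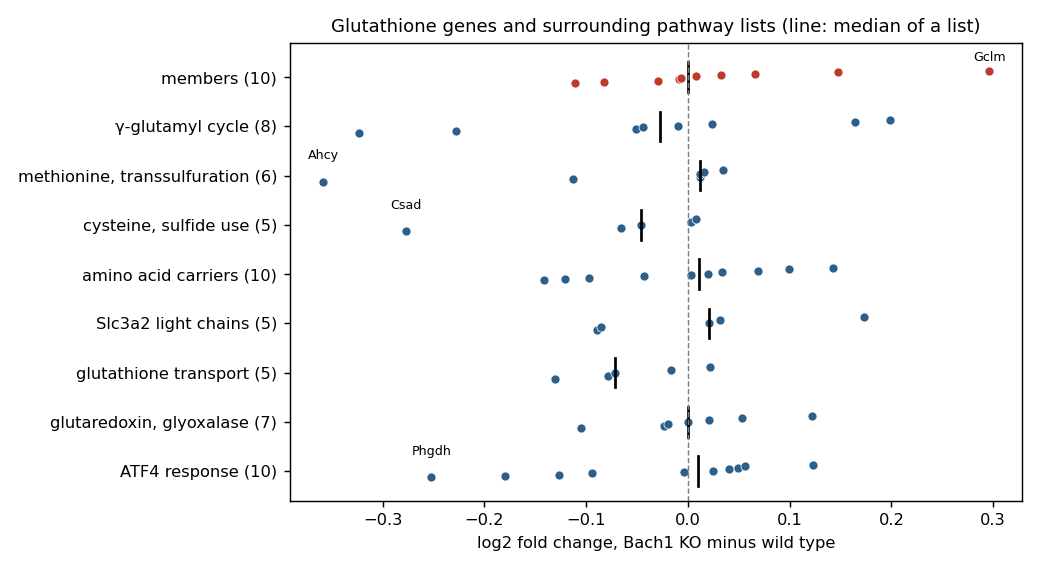
Log2 fold change, Bach1 knockout-labelled minus wild type (x axis), of the 10 glutathione genes in red and of the 56 surrounding pathway genes in blue, 1 row per list with the number of genes in brackets and a black line at its median. Gclm at 0.30 is the highest point, and Ahcy at -0.36 the lowest.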

How the data were processed

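The values deposited by the authors are log2 levels, 1 per probe set and array. They were made with RMA (background correction, normalization across arrays, summary of probes), as the submitters' processing notes name it. Its software version and annotation are not given in the sources used here. That the scale is log2 was read from the values (0.745 to 14.1). RMA removes a shift common to most genes and compresses differences of dim probe sets. Genes were named from the platform annotation, updated by Entrez identifier to a RefSeq gene table (GRCm38.p6; 23328 of 23521 probe sets with 1 gene matched). Probe sets with several genes (1814) or none (16010) carry no name here. There were 0 further sample columns.

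All 41345 probe sets were fitted with limma 3.58.1 in R 4.3.3 (lmFit, eBayes, no covariates), and p-values were adjusted over all of them (Benjamini-Hochberg), with calls under 0.05. The number of arrays limits the precision. Genes and lists were chosen with earlier results of these data known. The text names the 10 genes, Bach1, Hmox1, up to 2 genes with the smallest p per pathway list where none was called, and the 5 closest profiles of the gene with the widest range and of the gene with the smallest p. Other names are marked or are list members given beside their list. Alternatives were other scalings, variance models, weights, probe sets, a filter on dim probe sets, replicate blocks and left-out arrays. The fit was tested on simulated data.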

Additional observations from a re-analysis of the deposited data

How the results depend on the processing

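Under the 14 alternatives run for every gene, and the 2 further ones for Slc7a11, 0 glutathione genes and 0 surrounding pathway genes passed, leaving out single arrays included. Of all probe sets 3 passed with all arrays, and 0 passed with replicate blocks, without any single array (0 to 0) or without both arrays low in meningeal markers. Log2 fold changes without single arrays ran from -0.14 to 0.32 for Slc7a11, -0.15 to 0.0075 for Slc1a1, -0.039 to 0.025 for Gclc, -0.031 to 0.084 for Gss, -0.034 to 0.056 for Gsr, -0.032 to 0.014 for Chac1, -0.0025 to 0.10 for Chac2, -0.12 to 0.0092 for Mpst, -0.18 to 0.010 for Glrx and -0.088 to 0.34 for Slc7a11 minus Slc3a2. Signs also turned with renewed quantile normalization for Gclc (0.017) and Chac1 (0.037), with arrays centred on the median for Gss (-0.015) and Gsr (-0.039), and with arrays centred on the 75th percentile for Slc3a2 (0.013), Gclc (0.034) and Chac1 (0.036). Without both arrays low in meningeal markers they turned for Gsr (-0.029), Chac1 (0.023), Abcc1 (0.012) and Glrx (0.056). For Slc7a11 the sign turned with the mean of its probe sets (-0.0082) and with the other probe set (-0.16). The cause was not tested. Hmox1 kept log2 fold changes of 1.88 to 2.06, with adjusted p of 0.134 to 0.233 without single arrays. Deviations of arrays with the same replicate number correlated at 0.086, -0.033 and 0.039 across probe sets. Between different numbers the correlations ran from -0.083 to 0.046. Whether arrays of the same number shared a batch or a pairing cannot be read from these values. The replicate block, balanced over both groups, leaves log2 fold changes as they are, 0.30 for Gclm and 1.95 for Hmox1 (limma, adjusted p = 0.544 for Hmox1). Small differences of dim probe sets such as the second one of Slc7a11 are limited by signal.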

Other observations

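The genes whose profile over the 6 arrays lay closest to that of Gclm were Xlr3a, Gm13547, E330021D16Rik, Daam2 and Tcf15, with root mean square differences of 0.029 to 0.045 against a root mean square of 0.16 for Gclm itself. Xlr3a belongs to a family of nearly identical X-linked genes, so its reading may be shared with them. Its log2 level was 7.65, 7.38 and 7.47 on the knockout-labelled arrays and 7.19, 7.13 and 7.14 on the wild-type arrays. Daam2, a regulator of Wnt signalling in glia, was at 8.75, 8.58 and 8.71 against 8.48, 8.42 and 8.43. In both genes the groups did not overlap, which is part of how a profile close to that of Gclm was chosen and carries no test.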
